A study of Mus musculus with 6 samples.

Results

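Platelet-derived growth factor (PDGF) and hepatocyte growth factor (HGF) act through receptor tyrosine kinases. Transcripts of 8 genes were followed here in tail tendon, the 4 PDGF ligand genes *Pdgfa*, *Pdgfb*, *Pdgfc* and *Pdgfd*, the PDGF receptor genes *Pdgfra* and *Pdgfrb*, the ligand gene *Hgf* and its receptor gene *Met*. They were taken by symbol from a table of read counts for 44788 gene symbols. All 8 were present, and 7 of them were among the 14550 symbols with enough counts to be tested. Of these 7, *Met* and *Pdgfc* fell in *Mkx*-/- tendons at an adjusted p under 0.05, beside 2.26% of all genes tested. None rose, beside 3.18% of all genes tested. In 16 other settings, such as other scaling or a library left out, *Met* kept its call in 15 and *Pdgfc* in 12. Both calls were lost when both libraries numbered 3 were left out. *Hgf* was read at 1 to 7 counts per library and was not tested.

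Bulk RNA-seq was performed on tail tendons of C57BL/6 mice, 3 libraries from wild-type (WT) mice and 3 from *Mkx*-/- mice, a model of tendon heterotopic ossification. *Mkx* encodes Mohawk, a homeobox transcription factor of tendon. The source describes the knockout mice as a transgenic line and names no tissue-specific Cre. The labels give an age of 3 weeks for all 6 libraries, while the text of the study gives a higher age, and no treatment is named for either group. Whether a library came from 1 mouse or from several pooled mice is not given in the sources used here, so the p-values measure the spread between these libraries. The libraries held 10835070 to 14160301 counts, and expression levels are given as CPM, the counts relative to library size after TMM scaling, which corrects that size for a few very abundant genes.

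The PDGF ligands are secreted as dimers. PDGF-A and PDGF-B are processed inside the cell by proprotein convertases, whereas PDGF-C and PDGF-D leave the cell in a latent form and are activated outside it by proteases such as tissue plasminogen activator and urokinase. The alpha receptor binds A, B and C chains, and the beta receptor binds B and D chains. In connective tissue the ligands are mitogens for fibroblasts, *Pdgfra* is widely used as a fibroblast marker, and *Pdgfrb* is expressed by pericytes, smooth muscle cells and many fibroblasts. HGF is made mainly by mesenchymal cells as an inactive single chain, and its receptor Met is best known in epithelial cells, endothelial cells and muscle satellite cells. The study also gave BIBF1120, an inhibitor of VEGF, FGF and PDGF receptor kinases, at the Achilles tendons of *Mkx*-/- mice and of injured rats. This gives the levels of the PDGF receptors in untreated tendons a bearing on its design. The levels here are from mouse tail tendon, a different tendon from the treated one.

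The promoters of the 2 genes that fell are shown first, because they are the only ones among the 8 windows searched, of 6 of the 8 genes, that held a match to the motifs examined. *Pdgfa* and *Hgf* had 2 windows each. *Pdgfb* and *Pdgfrb*, neither of which fell, were not searched, so the genes that fell cannot be set against all the others. Each sequence is the 250 bases before the annotated start in RefSeq for the build GRCm38.p6, on the plus strand, and the capitals mark the match.

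*Met*, chr6:17463707-17463956: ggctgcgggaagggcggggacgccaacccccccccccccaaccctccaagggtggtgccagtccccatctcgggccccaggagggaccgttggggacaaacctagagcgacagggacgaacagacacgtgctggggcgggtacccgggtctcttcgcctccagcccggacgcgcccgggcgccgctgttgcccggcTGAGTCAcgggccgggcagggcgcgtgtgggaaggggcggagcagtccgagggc

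*Pdgfc*, chr3:81036166-81036415: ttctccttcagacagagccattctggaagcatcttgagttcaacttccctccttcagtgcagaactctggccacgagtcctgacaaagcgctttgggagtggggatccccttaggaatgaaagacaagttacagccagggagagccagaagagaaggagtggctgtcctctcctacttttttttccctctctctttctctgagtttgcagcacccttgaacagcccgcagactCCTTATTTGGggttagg

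In all, 3 motifs of transcription factors that act downstream of growth factor receptors were searched on both strands, and no matches overlapped. The AP-1 motif, the letters TGACTCA or TGAGTCA, which Fos and Jun dimers bind, occurred once in the *Met* window, 54 to 48 bases before the start, and in 4.46% of all 32851 promoter windows of this length. The CArG box, the motif of serum response factor, occurred once in the *Pdgfc* window, 17 to 8 bases before the start, and in 1.47% of all windows. The EGR motif, the letters GCGTGGGCG or GCGGGGGCG, was in none of the 8 windows and in 3.06% of all windows. The *Met* window had a GC content of 74.0% and the *Pdgfc* window of 50.8%. A match of letters does not show binding, and its absence says only that these letters are not in this window.

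Several facts of the whole series bear on these values. *Mkx* itself was at 144, 136 and 135 CPM in WT libraries and at 56.8, 41.4 and 38.9 CPM in *Mkx*-/- libraries, so reads on the gene remained. *Col1a1*, *Col1a2* and *Sparc* took 42.0% to 48.5% of all counts in WT and 28.3% to 34.8% in *Mkx*-/- libraries. All 10 tendon fibroblast markers, of which *Col1a2* was highest, were detected in each genotype, with a summed level of 382676 to 525485 CPM in WT and 246228 to 341186 CPM in *Mkx*-/- libraries. *Col1a1* and *Col1a2*, with WT means of 185335 and 257911 CPM, made up most of that sum, so it repeats the collagen shift. The median log2 fold change of the 10 markers was -0.029. Of them 0 were lower past the test and 1 was higher, *Thbs4*, beside 2.26% and 3.18% of all genes. WT replicate 3 stood apart in sex, with 301 counts of the Y-linked *Ddx3y* and 1 count of *Xist*, against 0 counts and 1289 to 1866 counts in the other 5 libraries. *Mkx*-/- replicate 3 stood apart in smooth muscle genes, with *Myh11* at 202 CPM against 1.97 to 2.75 CPM in the other 5 libraries. Skeletal muscle fibre markers (highest member *Acta1*) summed to 97.4 to 377 CPM in WT and to 518 to 2586 CPM in *Mkx*-/- libraries, with 2 of the 12 markers past the test.

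Differences between genotypes were tested in edgeR by quasi-likelihood, with Benjamini-Hochberg adjustment over all 14550 genes. A gene was taken as changed at an adjusted p under 0.05. At that threshold 2 of the 7 tested genes were lower in *Mkx*-/- tendons, beside 2.26% of all genes, and 0 were higher, beside 3.18% of all genes. Both passing genes also had a log2 fold change below -1, as 1.33% of all genes did, and 1.89% of all genes passed above 1. By unadjusted p under 0.05, 2 of the 7 were higher and 3 lower. Such values were common, since *Pdgfb*, at an unadjusted p of 0.0411 from edgeR, ranked 3018 of the 14550 genes. Counts by unadjusted p given below for lists of genes are to be read beside this rank. DESeq2 called 0 of the 7 higher and 3 lower, the third being *Pdgfd*. Over all genes it called 763 higher and 559 lower, among 25763 genes with a p-value. With both libraries numbered 3 left out, a choice made after seeing the data because both stand apart, edgeR called 0 of the 7 lower, and over all genes it called 24 higher and 19 lower. The libraries of the genotypes did not overlap for *Pdgfc*, *Pdgfd* and *Met*, all lower, and for *Pdgfb*, higher. Such separation was found in 13.6% of all genes in the lower direction and in 14.6% in the higher direction.

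**Figure D1:**
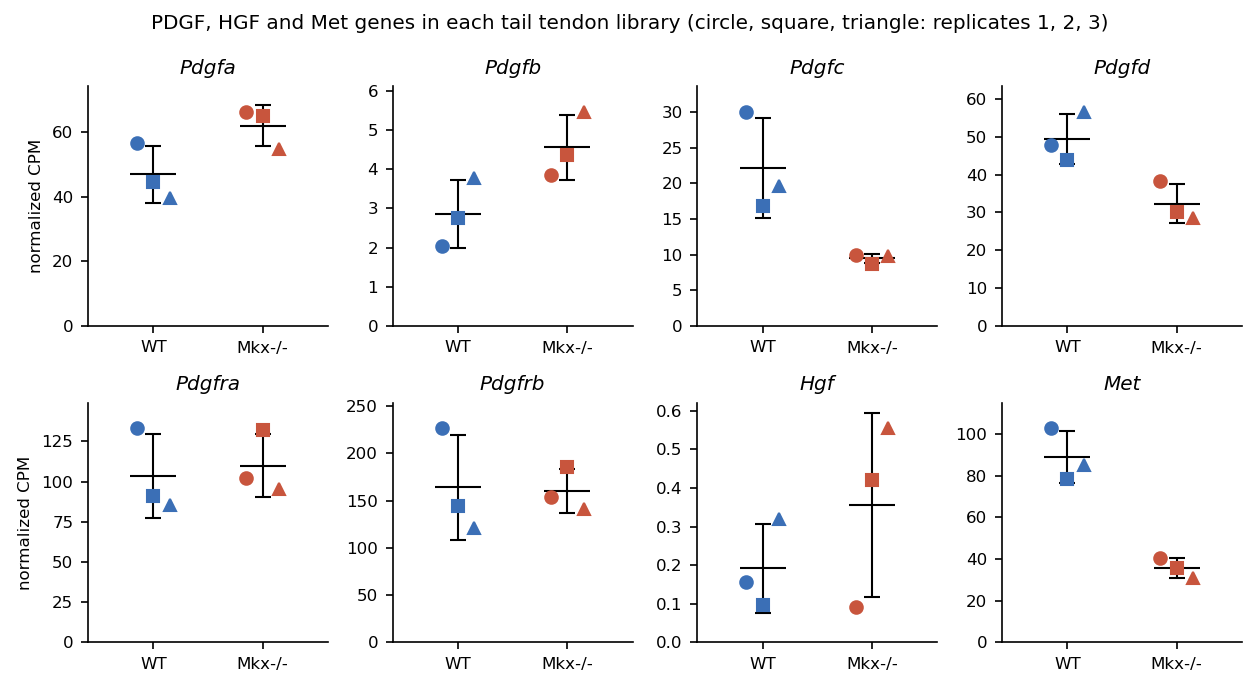
Normalized CPM of the 8 genes (y axis, a separate linear scale from 0 for each gene) in the WT libraries (blue) and *Mkx*-/- libraries (red), with a symbol for each replicate and black lines for the mean and SD, n = 3. *Met* lay at 78.5 to 103 CPM in WT and 30.8 to 40.3 CPM in *Mkx*-/- libraries, and *Hgf* lay under 0.6 CPM everywhere.

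Among the ligands, *Pdgfc* fell. *Pdgfc* encodes a ligand of the alpha receptor and spans chr3:80840338-81017962 on the plus strand in mm9. Its level was 30.0, 16.8 and 19.5 CPM in the WT libraries and 9.89, 8.71 and 9.75 CPM in the *Mkx*-/- libraries. All 3 *Mkx*-/- libraries lay below the lowest WT library and close to each other, while WT replicate 1 was far above the other WT libraries. The means were 22.1 ± 6.98 CPM (SD, n = 3) and 9.45 ± 0.644 CPM (SD, n = 3), a log2 fold change of -1.23 (SE 0.22, 95% interval -1.74 to -0.72, adjusted p = 0.0202 from edgeR). In bulk tissue, fewer cells of a type and less RNA per cell cannot be told apart. The log2 fold change was -0.95 without WT replicate 1, and it still passed. The call was lost without WT replicate 3 (adjusted p = 0.0512 from edgeR), without *Mkx*-/- replicate 2 (0.0763) and without *Mkx*-/- replicate 3 (0.0634), at log2 fold changes of -1.33, -1.17 and -1.25. It was also lost without both libraries numbered 3 (-1.34, adjusted p = 0.159).

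*Pdgfd*, the ligand of the beta receptor that is also activated outside the cell, spans chr9:6168612-6378843 on the plus strand. It was at 47.9, 43.8 and 56.6 CPM in WT and at 38.2, 30.0 and 28.6 CPM in *Mkx*-/- libraries. The genotypes did not overlap, and *Mkx*-/- replicate 1 came closest to WT. The log2 fold change was -0.62 (SE 0.16, 95% interval -0.98 to -0.26) and did not pass over all genes (adjusted p = 0.0615 from edgeR). It passed under DESeq2 (adjusted p = 0.0195), under edgeR with every gene of at least 1 count kept (0.0243) and without *Mkx*-/- replicate 1 (0.0460). With scaling by library size only, it was -0.37, with an adjusted p of 0.159 from edgeR.

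The ligands that are processed inside the cell had values in the opposite direction, and neither passed. *Pdgfa*, a ligand of the alpha receptor at chr5:139451968-139473324 on the minus strand, was at 56.6, 44.5 and 39.6 CPM in WT and at 66.2, 64.9 and 54.7 CPM in *Mkx*-/- libraries. WT replicate 1 lay above *Mkx*-/- replicate 3, so the genotypes overlapped by 1 library on each side. Its log2 fold change was 0.40 (SE 0.16, 95% interval 0.038 to 0.77, adjusted p = 0.180 from edgeR). Without WT replicate 1 it was 0.56 and passed (adjusted p = 0.0469 from edgeR).

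*Pdgfb*, which binds both receptors and is best known as the endothelial signal that recruits pericytes, lies at chr15:79826330-79845238 on the minus strand. It was a low gene, with 26, 28 and 47 counts in WT and 42, 62 and 69 counts in *Mkx*-/- libraries. These made 2.05, 2.75 and 3.77 CPM in WT against 3.85, 4.36 and 5.47 CPM in *Mkx*-/- libraries, and the highest WT library was just under the lowest *Mkx*-/- library. The log2 fold change was 0.67 (SE 0.28, 95% interval 0.035 to 1.32, adjusted p = 0.198 from edgeR), and under the 16 other settings tried it passed in none. Endothelial markers were read beside it. Of 14 markers, 12 had higher values in *Mkx*-/- libraries, and 2 passed, *Erg* and *Ecscr*, beside 3.18% of all genes. By unadjusted p under 0.05 from edgeR, 9 were higher and 0 lower. DESeq2 called 5 higher, *Erg*, *Ecscr*, *Vwf*, *Tie1* and *Pecam1*. The sum of the 14 (highest member *Eng*) was 109 to 135 CPM in WT and 187 to 260 CPM in *Mkx*-/- libraries, with none at 0. The markers differed in their library order. In *Mkx*-/- replicates 1, 2 and 3 *Erg* was at 44.1, 37.1 and 26.9 CPM. *Pecam1*, which passed under DESeq2 but not in edgeR (adjusted p = 0.120 from edgeR), was at 8.88, 9.27 and 27.5 CPM there. Their part in the *Pdgfb* values was not tested.

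Levels of different genes were compared per exon length, as RPKM, the normalized CPM divided by exon length in kilobases, with the exon lengths of the GENCODE annotation of mm9. In WT tendons *Pdgfrb* had the highest level, 29.9 RPKM with a range of 22.1 to 41.3. *Pdgfd* (15.9 RPKM), *Pdgfra* (15.3 RPKM), *Pdgfa* (15.03 RPKM) and *Met* (11.5 RPKM) followed. The first 3 of these had overlapping ranges, from 12.7 to 19.8 RPKM, and *Met*, at 10.2 to 13.3 RPKM, overlapped the lower end of *Pdgfra* and *Pdgfa*. *Pdgfc* was at 4.35 RPKM (3.30 to 5.90), *Pdgfb* at 0.978 RPKM (0.702 to 1.29) and *Hgf* at 0.0697 RPKM, and the ranges of these 3 overlapped neither each other nor those above them. In *Mkx*-/- tendons *Pdgfrb* was again highest at 29.2 RPKM, followed by *Pdgfa* at 19.9 RPKM, *Pdgfra* at 16.3 RPKM, *Pdgfd* at 10.3 RPKM and *Met* at 4.62 RPKM. *Pdgfc* (1.86 RPKM, 1.71 to 1.94) and *Pdgfb* (1.56 RPKM, 1.32 to 1.87) now overlapped each other, and *Hgf* was lowest at 0.129 RPKM.

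On the same per-length scale, the 4 ligands were expressed as a share of their own sum in each library, a measure that does not depend on the scaling between libraries. *Pdgfa* made up 45.2%, 43.8% and 35.3% of the PDGF ligand transcripts in WT and 57.8%, 61.9% and 57.5% in *Mkx*-/- libraries. The share of *Pdgfd* was 38.3%, 43.1% and 50.5% in WT and 33.3%, 28.6% and 30.1% in *Mkx*-/- libraries. Neither share overlapped between the genotypes, *Pdgfa* being the larger of the pair in 2 of 3 WT libraries and in all 3 *Mkx*-/- libraries. *Pdgfc* contributed 10.1% to 14.7% in WT and 5.09% to 6.28% in *Mkx*-/- libraries. *Pdgfb* contributed at most 3.59% in WT and 3.59% to 6.15% in *Mkx*-/- libraries. These shares are a description without a test, since a fall of one ligand raises the shares of the others.

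**Figure D2:**
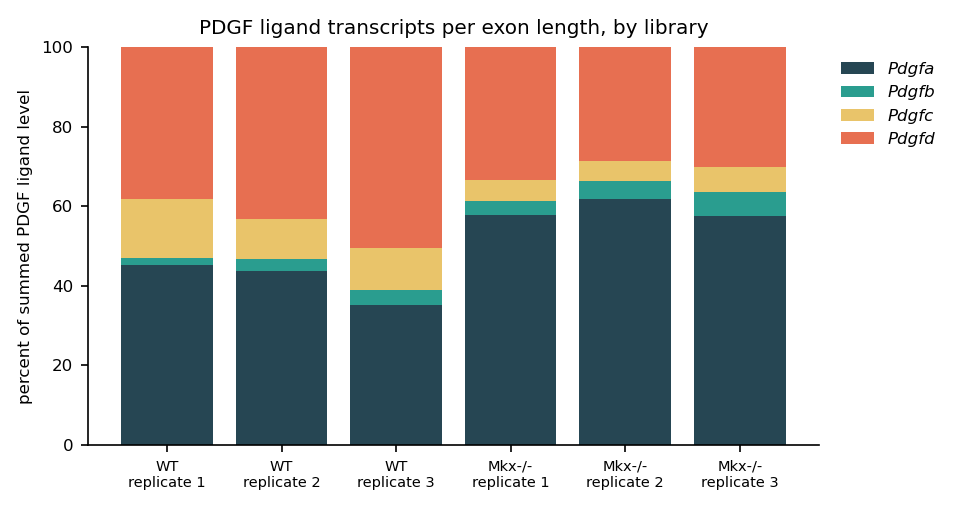
Share of each PDGF ligand gene in the summed per-length level of the 4 ligands (y axis, percent), with a stacked bar for each library. *Pdgfa* and *Pdgfb* together fill a larger part of each *Mkx*-/- bar than of any WT bar, with *Pdgfa* at 57.5% to 61.9% against 35.3% to 45.2%.

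The PDGF receptors showed no genotype difference beyond the spread between libraries. *Pdgfra*, at chr5:75548316-75594229 on the plus strand, was at 133, 90.9 and 85.7 CPM in WT and at 102, 132 and 95.05 CPM in *Mkx*-/- libraries. Each genotype had a single high library, WT replicate 1 and *Mkx*-/- replicate 2, and the ranges overlapped almost fully. The log2 fold change was 0.09 (SE 0.20, 95% interval -0.37 to 0.55, adjusted p = 0.841 from edgeR).

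*Pdgfrb*, at chr18:61204804-61244715 on the plus strand, was at 226, 144 and 121 CPM in WT and at 154, 186 and 141 CPM in *Mkx*-/- libraries. The same pair of libraries was high, and the WT range enclosed the *Mkx*-/- range. Its log2 fold change was -0.03 (SE 0.23, 95% interval -0.56 to 0.50, adjusted p = 0.956 from edgeR). The sign of both receptors turned when single libraries were left out. For *Pdgfrb* the log2 fold change turned to 0.27 when WT replicate 1 was left out and to 0.051 when *Mkx*-/- replicate 3 was, and scaling by library size only gave 0.20. For *Pdgfra* it was -0.0084 without WT replicate 2, -0.043 without WT replicate 3 and -0.066 without *Mkx*-/- replicate 2.

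Within each library the receptors kept a narrow ratio. The log2 ratio of *Pdgfra* to *Pdgfrb* counts was -0.77, -0.67 and -0.50 in WT and -0.59, -0.49 and -0.57 in *Mkx*-/- libraries. The difference in mean, *Mkx*-/- minus WT, was 0.094 (exact two-sided permutation p = 0.3), where the smallest p that 3 against 3 libraries allow is 0.1. Over all 6 libraries *Pdgfra* counts were 0.588 to 0.711 times those of *Pdgfrb*, counted without regard to gene length.

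Pericytes and smooth muscle cells express *Pdgfrb*, so mural cell markers were read beside it. The 12 markers summed to 198 to 240 CPM in WT and to 234, 212 and 1054 CPM in *Mkx*-/- replicates 1, 2 and 3, with none at 0 in all libraries, and 0 of the 10 tested passed in edgeR (5 had an unadjusted p under 0.05, all higher, and DESeq2 called 2, *Mcam* and *Notch3*). In *Mkx*-/- replicate 3, where *Acta2* was at 396 CPM and *Cnn1* at 22.6 CPM, *Pdgfrb* was at 141 CPM, the lowest of the *Mkx*-/- libraries. That comparison rests on 1 library. Among the 8 tendon progenitor and sheath cell markers, *Tppp3*, *Ly6a* and *Cd44* rose and *Prg4* fell. The sum of the 8 overlapped, at 2339 to 2995 CPM in WT and 2302 to 2689 CPM in *Mkx*-/- libraries. *Prg4* made up much of it, with a mean of 1257 CPM in WT and 570 CPM in *Mkx*-/- libraries, so the sum hides the rises. The part of mural, progenitor and sheath cells in the receptor levels was not tested.

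**Figure D3:**
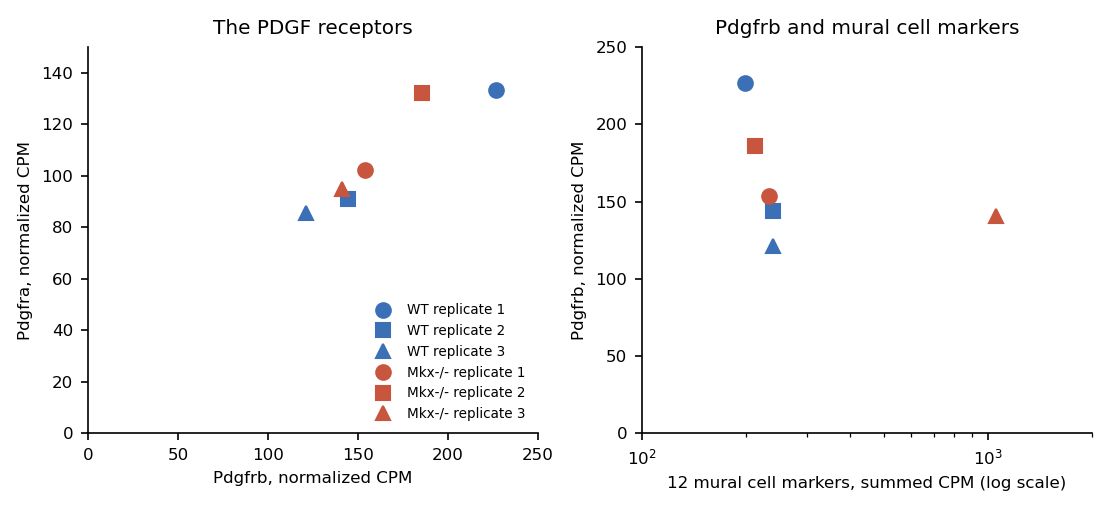
Left, *Pdgfra* against *Pdgfrb* in normalized CPM on linear axes, 1 point per library (blue WT, red *Mkx*-/-, symbols for replicates). Right, *Pdgfrb* in normalized CPM against the summed CPM of 12 mural cell markers on a log axis, where *Mkx*-/- replicate 3 lies apart at 1054 CPM with *Pdgfrb* at 141 CPM.

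The largest change was in *Met*, the receptor tyrosine kinase for HGF, at chr6:17413800-17523980 on the plus strand. It was at 103, 78.5 and 85.2 CPM in WT and at 40.3, 35.8 and 30.8 CPM in *Mkx*-/- libraries, from 389 to 1304 counts per library. The genotypes were far apart, the lowest WT library being well above the highest *Mkx*-/- library. The means were 88.8 ± 12.5 CPM (SD, n = 3) and 35.6 ± 4.73 CPM (SD, n = 3), a 2.49-fold lower level and a log2 fold change of -1.32 (SE 0.15, 95% interval -1.67 to -0.97, adjusted p = 0.00330 from edgeR). By p-value *Met* ranked 86 of the 14550 genes. The call held in 15 of 16 other settings, with log2 fold changes of -1.43 to -1.08 over all 16. It was lost only without both libraries numbered 3, at a log2 fold change of -1.25 (adjusted p = 0.0736 from edgeR).

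The ligand *Hgf*, at chr5:16059368-16125257 on the plus strand, was near the limit of detection in these libraries. It had 2, 1 and 4 counts in WT and 1, 6 and 7 counts in *Mkx*-/- libraries, 7 and 14 counts in all. These were 0.0981 to 0.320 CPM in WT and 0.0916 to 0.555 CPM in *Mkx*-/- libraries, and the ranges overlapped. When every gene with a count was kept, the log2 fold change of *Hgf* was 0.87 (SE 0.85, adjusted p = 0.658 from edgeR), so a difference was not detectable at this depth. The log2 ratio of *Hgf* to *Met* counts was -9.35, -9.64 and -8.05 in WT and -8.78, -6.41 and -5.80 in *Mkx*-/- libraries. Its mean was higher by 2.02 in *Mkx*-/- tendons (exact two-sided permutation p = 0.2), with an overlap between the genotypes. *Met* reads thus outnumbered *Hgf* reads in each of the 6 libraries.

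Markers of the cell types best known for *Met* were read beside it. Epithelial markers (highest member *Cdh1*) summed to 20.9 to 36.6 CPM in WT and 39.4 to 46.6 CPM in *Mkx*-/- libraries, and *Epcam* was at no more than 0.458 CPM. Of their 6 tested markers 0 passed in edgeR (4 higher and 1 lower had an unadjusted p under 0.05, and DESeq2 called *Krt14* and *Cdh1* higher and *Trp63* lower). The 6 satellite cell markers (highest member *Chodl*) summed to 0.393 to 2.52 CPM in WT and 2.20 to 4.85 CPM in *Mkx*-/- libraries. The endothelial sums given beside *Pdgfb* were higher in *Mkx*-/- libraries. Macrophage and leukocyte markers (highest member *Lyz2*) shared the direction of *Met* and *Pdgfc*, with all 12 lower. Of these 3 were past the test, beside 2.26% of all genes. The sums were 625 to 675 CPM in WT and 404 to 495 CPM in *Mkx*-/- libraries. The part of epithelial, satellite, endothelial, macrophage and leukocyte cells in the fall of *Met* and *Pdgfc* was not tested. Chondrocyte markers (highest member *Comp*) had sums of 1301 to 1794 CPM in WT and 1942 to 2615 CPM in *Mkx*-/- libraries, where *Acan*, *Matn3* and *Ucma* rose and *Matn1* was at 0 in all libraries.

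**Figure D4:**
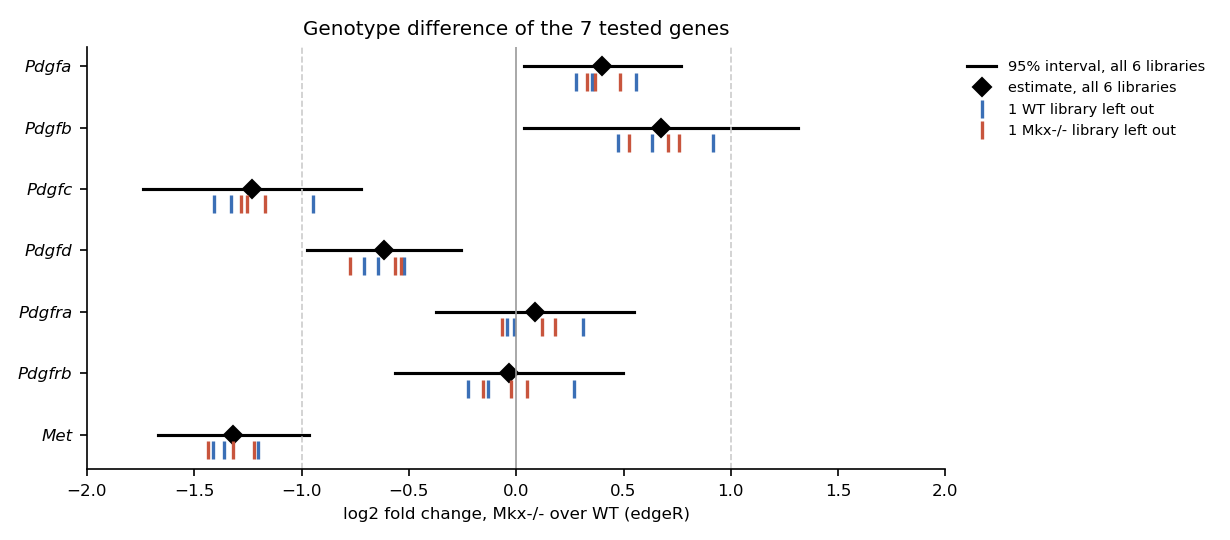
Log2 fold change of *Mkx*-/- over WT from edgeR (x axis) for the 7 tested genes, with a diamond for the estimate over all 6 libraries, a bar for its 95% interval, and ticks for the estimates with 1 library left out (blue WT, red *Mkx*-/-); dashed lines mark -1 and 1. *Met* at -1.32 and *Pdgfc* at -1.23 lie left of the first dashed line, and the intervals of *Pdgfra* and *Pdgfrb* span 0.

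The genes whose pattern over the 6 libraries was most like that of *Met*, among 10294 tested genes whose mean reached 5 CPM, were *Mpp1* (Pearson r = 0.9989 on log2 CPM), *Nedd4* (0.9989) and *Ddx6* (0.9943). For *Pdgfc* they were *Tep1* (0.9979), *Top2b* (0.9977) and *Dnmt3a* (0.9964). With only 6 libraries of shared genotypes such values are common, and 200 genes for *Met* and 139 for *Pdgfc* had r above 0.95, so these names are a description only.

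The other genes of the PDGF and HGF-Met pathways were read from 8 lists holding 100 genes outside the 8 described so far. Of the 90 tested, 4 rose (4.44%) and 5 fell (5.56%), beside 3.18% and 2.26% of all genes, and their median log2 fold change was 0.0031 against -0.0037 for all genes. Proteins that process the PDGF ligands held 2 of the 4 genes that rose. *Pcsk5*, a proprotein convertase, rose from 31.4, 31.9 and 25.6 CPM in WT to 130, 98.5 and 109 CPM in *Mkx*-/- libraries, a log2 fold change of 1.93 (SE 0.15, adjusted p = 0.00088 from edgeR). It passed under all 16 other settings. *Pcsk6*, a related convertase, was at 178 to 200 CPM in WT and 292 to 312 CPM in *Mkx*-/- libraries and rose by 0.69 (adjusted p = 0.0165). It lost the call without WT replicate 2 or 3 or *Mkx*-/- replicate 2 or 3, at adjusted p-values from 0.0531 to 0.0854 in edgeR. The plasminogen activators, which activate PDGF-C and PDGF-D, did not pass, *Plat* at 0.54 (adjusted p = 0.2504) and *Plau* at -0.34 (adjusted p = 0.321), nor did the convertase *Furin* at -0.36 (adjusted p = 0.230).

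Of the 6 PDGF binding proteins and co-receptors, 0 passed in edgeR, while 1 higher and 1 lower had an unadjusted p under 0.05, and DESeq2 called *Pdgfrl* higher and *Sparc* lower. *Sparc*, the most abundant of them, binds PDGF-B and had a log2 fold change of -0.76 (adjusted p = 0.0994 from edgeR). *Pdgfrl*, a PDGF receptor-like gene, was at 403 to 489 CPM in WT and 610 to 868 CPM in *Mkx*-/- libraries, a log2 fold change of 0.62 (adjusted p = 0.0834).

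Of the proteases that cleave HGF and their inhibitors, only 4 of 10 genes had enough counts to be tested. *Hgfac*, *Hpn*, *St14*, *F12*, *Klkb1* and *Tmprss13* all stayed under 1.2 CPM in every library. *Spint1*, an inhibitor of HGF activators, was at 2.13, 2.94 and 3.93 CPM in WT and 5.13, 9.77 and 9.04 CPM in *Mkx*-/- libraries, and rose by 1.41 on the log2 scale (adjusted p = 0.0415 from edgeR). That call needed nearly all libraries, since it was lost without any single library other than *Mkx*-/- replicate 1, at adjusted p-values of 0.0583 to 0.126. Among the relatives and co-receptors of Met, 1 of 7 tested was higher past the threshold and 0 were lower, beside 3.18% and 2.26% of all genes. By unadjusted p under 0.05 from edgeR, 4 were higher and 0 lower. DESeq2 called 3 higher, *Plxnb1*, *Cd44* and *Itgb4*. *Cd44*, a co-receptor of Met and a marker of many stromal and blood cells, was at 18.4, 20.8 and 24.3 CPM in WT and 43.2, 52.7 and 80.1 CPM in *Mkx*-/- libraries, a rise of 1.47 (adjusted p = 0.0122 from edgeR; 0.0624 without WT replicate 2). The Met relative *Mst1r* was at 4.57 to 11.4 CPM over the 6 libraries (log2 fold change 0.57, adjusted p = 0.216).

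Downstream of the receptors, none of the 33 tested adaptors and effectors passed in edgeR. Their log2 fold changes lay between -0.64 and 0.66 with a median of 0.0067. By unadjusted p under 0.05, 5 were higher and 6 lower, where a p of 0.0411 from edgeR ranked 3018 of all 14550 genes. DESeq2 called 3 higher (*Fyn*, *Grb10* and *Stat3*) and 2 lower (*Pik3r1* and *Plcg1*), beside 763 and 559 of 25763 genes. *Grb10*, an adaptor that binds several receptor kinases, was the most abundant, at 186 to 244 CPM in WT and 303 to 417 CPM in *Mkx*-/- libraries (adjusted p = 0.0649 from edgeR). Of the 13 phosphatases and degradation factors 0 passed, 4 lower genes had an unadjusted p under 0.05, and DESeq2 called 1, *Socs3*, the most abundant of the list (log2 fold change -0.57, adjusted p = 0.0750 from edgeR). Transcript levels do not show receptor activity.

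Early response genes, which growth factors and many other stimuli induce within a short time, gave 3 genes lower and 0 higher among 17 tested. Over all genes 2.26% were lower and 3.18% higher, and the list median was -0.61. By unadjusted p under 0.05, 8 were lower and 2 higher, where a p of 0.0411 from edgeR ranked 3018 of all 14550 genes. DESeq2 called 4 lower and 1 higher, *Egr2*. *Fosb*, an AP-1 subunit, was at 98.2, 131 and 118 CPM in WT and 50.7, 42.4 and 42.1 CPM in *Mkx*-/- libraries, a log2 fold change of -1.36 (adjusted p = 0.00250 from edgeR). *Fos* was at 135, 36.1 and 90.4 CPM in WT and 17.3, 24.0 and 28.2 CPM in *Mkx*-/- libraries, with a log2 fold change of -1.91 (adjusted p = 0.0404). Its WT libraries differed from each other more than WT replicate 2 differed from the *Mkx*-/- libraries, and the call was lost without WT replicate 3 or any single *Mkx*-/- library, at adjusted p-values of 0.0917 to 0.111. A robust fit on all 6 libraries also removed the *Fos* call (adjusted p = 0.0774 from edgeR). *Jun* fell from 115 to 146 CPM in WT to 74.3 to 83.8 CPM in *Mkx*-/- libraries, with a log2 fold change of -0.69 (adjusted p = 0.0252), and lost the call without any single library other than WT replicate 1, at adjusted p-values of 0.0599 to 0.0952. Scaling by library size only also removed it (adjusted p = 0.139).

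The class III receptor kinases are the family to which the PDGF receptors belong. Of their 6 tested genes outside the PDGF genes 2 fell, beside 2.26% of all genes. *Kit*, the stem cell factor receptor of mast cells and progenitors, was at 9.85, 13.1 and 10.9 CPM in WT and 2.20, 3.51 and 2.54 CPM in *Mkx*-/- libraries (log2 fold change -2.02, adjusted p = 0.00283 from edgeR). *Csf1r*, the receptor of macrophages, was at 99.5 to 107 CPM in WT and 63.0 to 69.9 CPM in *Mkx*-/- libraries (log2 fold change -0.63, adjusted p = 0.0173). It lost the call without WT replicate 2 or 3 or *Mkx*-/- replicate 2 or 3, at adjusted p-values of 0.0591 to 0.0776. With library size only its log2 fold change was -0.38, which did not pass (adjusted p = 0.0993 from edgeR). *Csf1r* also belongs to the macrophage markers that were lower in *Mkx*-/- libraries. *Csf1*, *Kitl*, *Il34* and *Flt3l*, ligands of this family, had log2 fold changes of 0.12 to 0.34, and none passed.

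**Figure D5:**
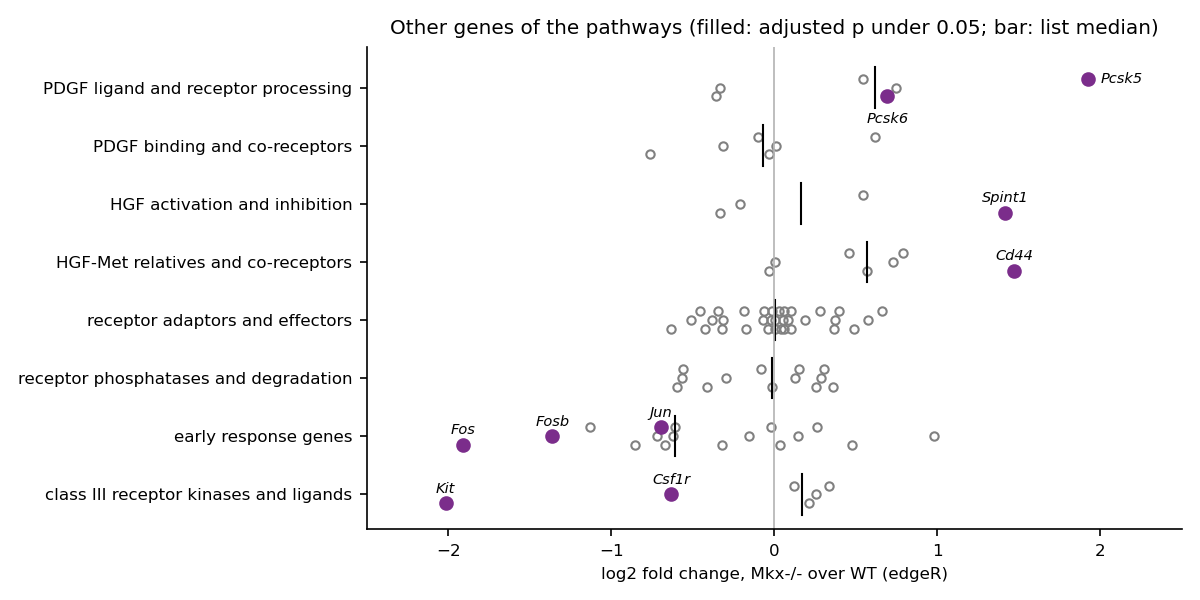
Log2 fold change of *Mkx*-/- over WT from edgeR (x axis) for the tested genes of the 8 pathway lists (rows), with filled points for genes past an adjusted p of 0.05, open points for the others and a black bar for the median of each list. The early response genes have a median of -0.61, and the adaptors and effectors lie around 0 with no filled point.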

How the data were processed

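The bulk RNA-seq part of the series was analysed, with 3 WT and 3 *Mkx*-/- libraries of tail tendon grouped by the sample labels. Single-cell, rat and histological data were not analysed here. The authors removed adaptor, ambiguous and low-quality reads, aligned the rest to mm9 with MapSplice and deposited raw counts per gene symbol. The counting program, its annotation and its strand setting are not given in the sources used here. Reads of *Pdgfa*, *Pdgfc* and *Pdgfd*, which have genes on the opposite strand in GENCODE, therefore cannot be told apart from antisense reads. The gene opposite *Pdgfd*, *Ddi1*, had 0 counts in every library. The genes opposite *Pdgfa* and *Pdgfc* were not among the symbols counted. All 6 columns were used and 0 were left unused.

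Normalized CPM and log2 fold changes (prior count 0.125) were derived from the counts by edgeR 4.0.16 (R 4.3.3), using TMM, filterByExpr and a quasi-likelihood fit on genotype. The SE is the log2 fold change divided by the root of F. RPKM used summed exon lengths of GENCODE for mm9. DESeq2 1.42.0 was an alternative, beside RLE, upper-quartile and library-size scaling, filters of 1 count in any or 10 counts in every library, a robust fit, removal of muscle genes, a block for the replicate number, and leaving out each library. The scripts were tested on simulated data. The depth of 10835070 to 14160301 counts gives *Hgf* at most 7 counts, where counting error dominates. Replicate libraries differed by a chi-square of 7.59 to 36.4 per degree of freedom, more than counting error alone gives. These values cannot show whether libraries came from separate mice, since separate preparations of the same RNA can also differ.

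The genes and lists were chosen with earlier results of these data known. Named were the 8 genes, *Mkx*, at most 4 passing genes of each pathway list or else its most abundant gene, the highest marker of each cell type described and markers at 0, the 3 genes most like each passing gene, and *Ddx3y* and *Xist*. Other marker genes, genes called by DESeq2 only, and *Plat*, *Plau*, *Furin*, *Pdgfrl* and *Mst1r* were named after their values were seen. *Hras* was not matched in the table. *Adgre1* was read under its older symbol. A few results are withheld for evaluation and are not reported here.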

Additional observations from a re-analysis of the deposited data

How the results depend on the processing

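Among the 8 genes, the count of lower calls was 1 to 3 and of higher calls 0 to 1 when a library was left out, against 2 and 0 with all 6, and 0 lower without both libraries numbered 3, an alternative added after seeing the data. Over all genes, 463 higher and 329 lower calls became 1358 and 197 with library size only, 970 and 594 with a filter of 1 count, 763 and 559 with DESeq2, 264 and 170 with the replicate block, 24 and 19 without both libraries numbered 3, and 117 to 539 and 127 to 439 with a library left out. Pathway genes, 4 and 5, became 14 higher with library size only, 11 and 10 with the filter of 1 count and with DESeq2, 2 lower with the block, 1 and 0 without both libraries numbered 3, and 1 to 7 and 2 to 7 with a library left out. The causes were not tested, other than that fewer libraries or genes enter some of these fits. Library size only moved the median of all genes by 0.25 and the share of calls that were higher from 58.5% to 87.3%. The log2 fold change of *Pdgfrb* turned to 0.20 with library size only and to 0.0091 with the block. With a library left out it ran from -0.22 to 0.27 for *Pdgfrb* and from -0.066 to 0.31 for *Pdgfra*.

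Deviations of same-numbered libraries had correlations of 0.0261, -0.21 and 0.297, and not every library correlated best with its own number. Deviations from the mean of 3 libraries cancel out within a genotype, so these values cannot show whether same-numbered libraries were paired. With the replicate block, *Met* and *Pdgfc* kept their calls, and *Pcsk6*, *Fos*, *Jun* and *Csf1r* had adjusted p-values of 0.0587 to 0.0926. The difference of the *Pdgfra* to *Pdgfrb* ratio stayed at 0.094 and that of *Hgf* to *Met* at 2.02 under pairing, where 3 pairs allow no exact p below 0.25. Depth limits *Hgf* to a few counts per library.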
